A study of Rattus norvegicus with 10 samples.

Results

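Insulin and insulin-like growth factors reach the brain from the blood or are made locally, and they act on cells through a shared kinase relay. Described here is the core of that relay, 9 genes taken by their symbols: the receptors *Insr* and *Igf1r*, the substrates *Irs1* and *Irs2*, the phosphoinositide 3-kinase (PI3K) subunits *Pik3ca* and *Pik3r1*, the kinases *Akt1* and *Akt2*, and the transcription factor *Foxo1*. All 9 have a row, and only 1 row each, in the deposited table of 12828 genes, 12383 of which are protein-coding.

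RNA was sequenced from the arcuate nucleus (ARC), a nutrient-sensing nucleus at the base of the hypothalamus, of 10 Wistar rat dams at parturition. Through pregnancy, 5 dams ate the 5X-FA diet, an AIN-93G diet with folic acid at 5 times the recommended quantity, and 5 dams ate the 5X-MTHF diet, with an equimolar quantity of [6S]-5-methyltetrahydrofolic acid as its calcium salt. All were in their first pregnancy and were killed after a daytime fast, and the ARC was cut free hand from frozen coronal slices with the third ventricle as a guide. Each sample was therefore a piece of mixed tissue, in which fewer cells of a type and less RNA per cell cannot be told apart.

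The comparison of the diets, which asks whether the form of folate eaten in pregnancy alters this pathway in the ARC, was not made here. The 10 columns of values per library carry no diet and no replicate number, so that no value could be tied to a dam, and the authors' own statistics of the comparison were not used. What was used is the authors' average log2 CPM, 1 value per gene, taken as the average over all libraries of both diets. CPM is the number of reads on a gene after each library's total has been scaled to the same size. It is not divided by transcript length, so a higher CPM means more reads and not necessarily more transcripts. The order of the genes given here is therefore an order in reads and not in transcripts. No spread between dams accompanies these averages, they give no depth for single libraries, and no difference between genes was tested.

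Insulin and IGF1 bind the products of *Insr* and *Igf1r*, receptor tyrosine kinases that phosphorylate the IRS proteins. Phosphorylated IRS proteins recruit PI3K, a dimer of a regulatory subunit such as p85alpha (*Pik3r1*) and a catalytic subunit such as p110alpha (*Pik3ca*). The lipid that PI3K makes brings Akt to the membrane, where it is activated, and active Akt phosphorylates FOXO1 and keeps it out of the nucleus. In the ARC this relay is known for its action on *Pomc* and *Agrp* neurons, through which insulin lowers food intake and hepatic glucose output.

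The 9 genes together took 618 CPM. On the log2 scale the lowest average was 3.68, the median 5.82 and the highest 7.10, beside a median of 4.94 and a range of -2.07 to 14.56 over all 12828 rows. In reads, 6 of the 9 lay above the median row, and 3 (*Foxo1*, *Igf1r* and *Irs1*) lay below it. The PI3K subunits, *Akt1* and *Irs2* made up the upper end, and both receptors lay below them.

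**Figure D1:**
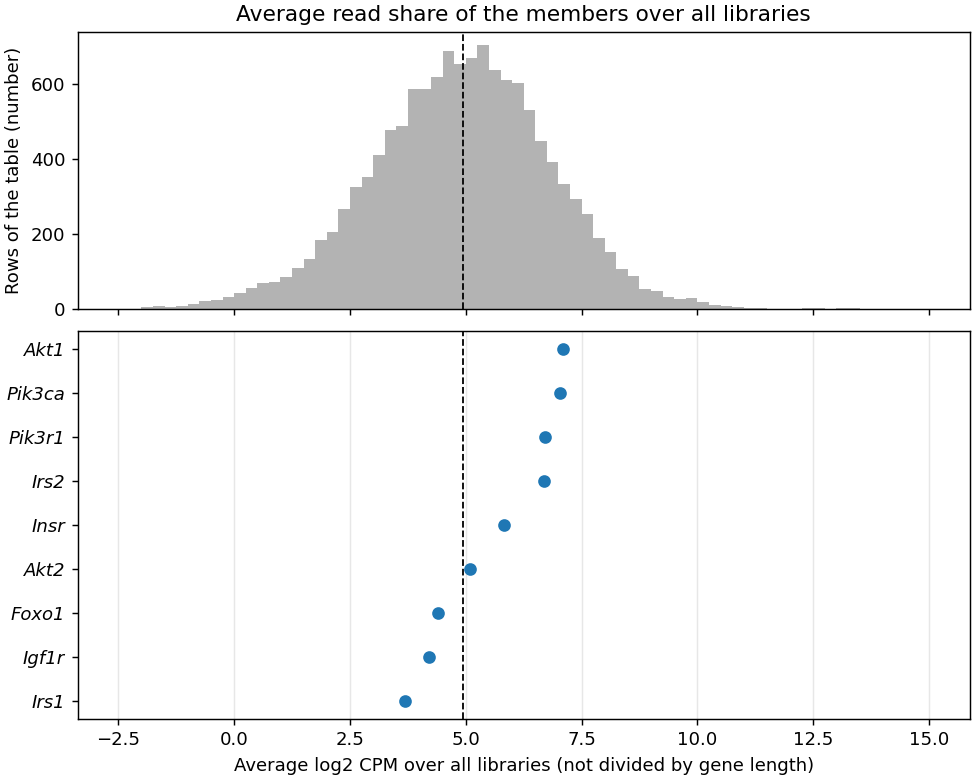
Average log2 CPM over all libraries (horizontal axis, not divided by gene length) for all 12828 rows of the table as a histogram (top) and for each of the 9 genes as a point (bottom), with the median row of 4.94 as a dashed line. *Akt1*, *Pik3ca*, *Pik3r1* and *Irs2* lie between 6.68 and 7.10, and *Foxo1*, *Igf1r* and *Irs1* lie left of the median row. The points have no error bars because no values per dam were used.

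Of the receptors, *Insr*, the insulin receptor, drew more reads than *Igf1r*, the receptor for IGF1. *Insr* (ENSRNOG00000029986) spans 135 kb of chromosome 12 of Rnor_6.0, from 1680957 to 1816414, and its average log2 CPM of 5.82 (56.4 CPM) lay at percentile 67.9 of all rows. *Igf1r* (ENSRNOG00000014187) spans 282 kb of chromosome 1, from 128924966 to 129206516, the longest of the 9 genes, and had an average log2 CPM of 4.21 (18.5 CPM), at percentile 34.8. The difference of 1.61 on the log2 scale means 3.05-fold more reads on *Insr*. Of the 3 receptors in the table the one with the most reads was *Igf2r*, which binds IGF2 and carries it to lysosomes without kinase signaling, with an average log2 CPM of 6.39.

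The stretches around the start sites of both receptors are shown because the receptors are the entry points of the relay and their windows differ in the number of CpG, the dinucleotide at which mammalian DNA is methylated. They are from RefSeq on GRCr8, a later build than that of the table, and run 5′ to 3′ from 250 bases before to 50 bases after an annotated start, with each CpG in capitals. That of *Insr* lies on chromosome 12, minus strand, chr12:6128754-6129053, and that of *Igf1r* on chromosome 1, plus strand, chr1:130959747-130960046.
Insr: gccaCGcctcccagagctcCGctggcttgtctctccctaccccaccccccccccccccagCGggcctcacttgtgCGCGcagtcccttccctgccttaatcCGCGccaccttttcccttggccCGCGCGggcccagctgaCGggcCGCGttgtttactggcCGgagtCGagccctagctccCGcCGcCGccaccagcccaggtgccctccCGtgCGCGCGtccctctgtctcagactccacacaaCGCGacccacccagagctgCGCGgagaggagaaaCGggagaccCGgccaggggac
Igf1r: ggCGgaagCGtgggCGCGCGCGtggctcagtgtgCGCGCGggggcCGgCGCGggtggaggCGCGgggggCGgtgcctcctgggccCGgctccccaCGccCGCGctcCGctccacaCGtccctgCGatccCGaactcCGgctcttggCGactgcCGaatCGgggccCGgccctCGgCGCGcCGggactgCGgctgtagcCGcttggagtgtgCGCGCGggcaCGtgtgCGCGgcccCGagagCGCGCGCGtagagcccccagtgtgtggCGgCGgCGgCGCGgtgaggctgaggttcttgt
The *Insr* window holds 28 CpG and the *Igf1r* window 50, against a median of 21 over the 8831 windows of the same length that could be matched to a row by a unique symbol. These counts describe the reference sequence, and DNA methylation was not analysed here.

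Windows were matched for 8 of the 9 genes, *Irs2* being the exception. Those of *Insr*, *Igf1r*, *Irs1*, *Pik3r1* and *Foxo1* belong to a start within 1000 bases of the outermost annotated start of their gene and hold 25 to 50 CpG, percentiles 62.5 to 98.4 of all windows. The starts of the windows of *Akt1*, *Akt2* and *Pik3ca* lie 2521, 17212 and 43656 bases inside their gene, and these windows hold only 3 to 9 CpG, so they do not describe the outermost start of these genes. The letters TGTTTAC, a core to which FOXO proteins bind, were searched for on both strands and were found in 2 of the 8 windows, those of *Insr*, beginning 100 bases before the start, and *Pik3ca*. The same letters were found in 187 of all 8831 windows (2.12%).

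Of the pairs of close relatives among the 9 genes (receptors, substrates and Akt kinases), the substrates were furthest apart in reads. *Irs2* (ENSRNOG00000023509), on chromosome 16 from 83824430 to 83848684, had an average log2 CPM of 6.68 (103 CPM), at percentile 83.1 of all rows. *Irs1* (ENSRNOG00000014597), on chromosome 9 from 88033668 to 88086488, had the lowest value of the 9, an average log2 CPM of 3.68 (12.8 CPM), at percentile 25.5. *Irs2* thus drew 8.01-fold more reads than *Irs1*, and 88.9% of the reads of the pair. The IRS proteins are the docking sites through which both receptors reach PI3K. The other substrates listed, *Irs3* and *Irs4*, were not analysed here.

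Both PI3K subunits lay at percentile 83.4 or above in reads. *Pik3ca* (ENSRNOG00000056371), the catalytic subunit p110alpha, lies on chromosome 2 from 118831350 to 118861454 and had an average log2 CPM of 7.03 (130 CPM), at percentile 87.3. *Pik3r1* (ENSRNOG00000018903), which encodes the regulatory subunit p85alpha and its shorter forms, lies on the same chromosome from 31745088 to 31826867 and had an average log2 CPM of 6.71 (105 CPM), at percentile 83.4. Each drew more reads than the relatives of it that were listed and had a row. Against *Pik3ca*, reads on *Pik3cb* and *Pik3cd*, the other catalytic subunits of the same class, were 3.65-fold and 7.52-fold fewer. Against *Pik3r1*, reads on *Pik3r2* and *Pik3r3* were 1.32-fold and 2.63-fold fewer.

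Of the Akt kinases among the 9 genes, *Akt1* drew the most reads of all 9 and *Akt2* fell near the median row. *Akt1* (ENSRNOG00000028629), on chromosome 6 from 137218376 to 137236258, had an average log2 CPM of 7.10 (137 CPM), at percentile 88.1. *Akt2* (ENSRNOG00000018677), the form best known for glucose uptake in muscle and fat, lies on chromosome 1 from 84411726 to 84450162 and had an average log2 CPM of 5.10 (34.3 CPM), at percentile 53.3. Reads on *Akt1* were 3.99-fold those on *Akt2*.

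*Foxo1* (ENSRNOG00000013397), the transcription factor at the end of the relay, lies on chromosome 2 from 141451234 to 141527016. Its average log2 CPM was 4.40 (21.2 CPM), at percentile 38.6 of all rows. Of the 4 FOXO genes in the table, *Foxo4* drew the most reads, with an average log2 CPM of 5.58. *Foxo3* followed with 4.64, *Foxo1* came next, and *Foxo6* had 2.69. *Foxo3* and *Foxo1* were the closest pair, 1.18-fold apart in reads.

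None of the 9 genes overlaps another row of the table in its annotated span (0 overlapping rows for each). Genes that the authors removed for few reads have no row and were not part of this check. *Pik3ca*, *Pik3r1* and *Foxo1* are all on chromosome 2, at least 22.6 Mb apart, and *Igf1r* and *Akt2* are both on chromosome 1.

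Around these genes, a list of 63 further genes of the pathway was matched to the table, and 54 had a row. Their median average log2 CPM was 5.93, and 40 of the 54 (74.1%) lay above the median row in reads. The remaining 9 listed genes were not analysed here: *Ins1*, *Ins2*, *Igfbp1*, *Insrr*, *Irs3*, *Irs4*, *Socs1*, *Socs3* and *Pik3cg*. Each step of the relay, from growth factors to the targets of Akt, had at least 1 gene with a row.

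Of 11 listed ligands and binding proteins, 8 had a row, and 4 of the 8 lay above the median row. *Igfbp5*, a binding protein that sequesters IGFs, was highest with an average log2 CPM of 7.80, close to *Igf2* with 7.77, and *Igfbp6* was lowest with 2.50. *Igf1*, the main ligand of *Igf1r*, had 2.80. Of *Igf1* and *Igf2*, the only listed growth factors with a row, *Igf2* thus drew more reads. Which cells or regions these reads came from was not tested.

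At the receptors, 10 of 14 listed adaptors and regulators had a row and 6 of them lay above the median row. *Ptpn11*, a phosphatase that relays receptor signals to Ras, was highest with an average log2 CPM of 9.01, and *Sh2b2*, an adaptor that binds the insulin receptor, was lowest with 3.26. *Grb10*, an adaptor that inhibits both receptors, had 7.55, and *Ptpn1*, the phosphatase that removes phosphate from the insulin receptor, had 4.27. Of the 9 listed PI3K subunits and lipid phosphatases, 8 had a row, from *Pik3cd* with 4.12 to *Pik3c2a*, a PI3K of another class, with 6.48.

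All 9 listed kinases and phosphatases that act on or with Akt had a row, and all 9 lay above the median row. They ran from *Mapkap1*, a subunit of the mTOR complex that phosphorylates Akt, with an average log2 CPM of 5.37, to *Phlpp1*, a phosphatase that removes that phosphate, with 7.34. All 11 Akt targets and readouts also had a row, 7 of them above the median row. *Gsk3a*, a kinase that Akt inhibits, was highest with 7.32, and *Eif4ebp1*, a brake on translation that mTOR releases, was lowest with 1.93. All 7 genes of the Ras-MAPK branch lay above the median row, from *Hras* with 5.84 to *Map2k1* with 7.92.

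**Figure D2:**
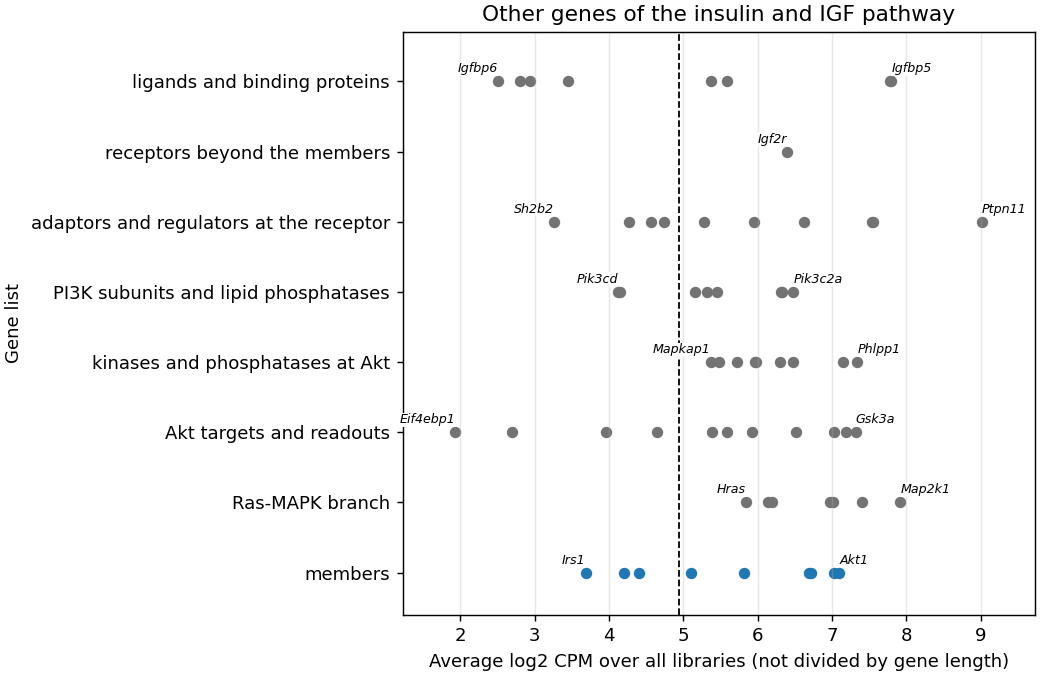
Average log2 CPM over all libraries (horizontal axis, not divided by gene length) of the 54 further pathway genes by group (grey points) and of the 9 core genes, labelled members (blue points), with the median row of 4.94 as a dashed line. The highest and lowest gene of each group are named. All points of the Ras-MAPK branch and of the kinases and phosphatases at Akt lie right of the line.

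The tissue was checked against markers of the ARC and of other regions and cells that a free-hand cut could hold. The list for ARC neurons holds 10 genes, not all of them particular to the ARC. Of these, 9 had a row (*Npy* was not analysed here), with 162 CPM in sum. *Cartpt* and *Th* alone took 65.0 and 36.8 CPM of that sum. *Tbx3* and *Nr5a1* had an average log2 CPM of 2.45 and 1.88. *Cartpt* was highest with an average log2 CPM of 6.02. Of the other peptide genes, *Pomc* had 4.67, *Tac3* 4.34, *Agrp* 1.42, *Ghrh* 1.02 and *Kiss1* 0.08, all below the median row in reads. All 6 striatal genes had a row, with 344 CPM in sum and *Ppp1r1b* highest with 7.07. Of 5 genes of cortex and hippocampus, 4 had a row, with 164 CPM in sum and *Slc17a7*, the vesicular glutamate transporter of cortical neurons, highest with 7.17. *Slc17a7* alone took 144 CPM of that sum, and the other 3 (*Neurod2*, *Neurod6* and *Tbr1*) lay below the median row, with an average log2 CPM of 2.13 to 3.34. The 4 thalamic genes summed to 347 CPM, led by *Slc17a6* with 8.09, a transporter that hypothalamic neurons also use and that alone took 272 CPM. The part of regions beyond the ARC in the values of the 9 genes was not tested. Of 4 pituitary genes, 2 had a row (*Prl* and *Gh1* were not analysed here), *Cga* with 4.95 and *Pomc*, which the ARC also expresses, with 56.4 CPM in sum.

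Markers of oligodendrocytes and astrocytes took more reads than those of any region. The 5 oligodendrocyte genes summed to 13327 CPM, led by *Mbp* with an average log2 CPM of 12.59, and the 5 astrocyte genes to 3376 CPM, led by *Aqp4* with 10.22. The 4 pan-neuronal genes summed to 2841 CPM, led by *Snap25* with 10.44. The 5 microglial genes summed to 184 CPM, of which *Csf1r* alone took 113 CPM, the only 1 of the 5 above the median row. Of 4 endothelial genes, 3 had a row (*Pecam1* was not analysed here), with 152 CPM in sum. *Flt1* took 78.0 CPM of that sum, and *Cdh5*, with an average log2 CPM of 4.30, lay below the median row. Of 5 genes of tanycytes, the cells that line the floor of the third ventricle beside the ARC, 4 had a row, with 72.3 CPM in sum. *Crym* alone took 46.1 CPM of that sum, the only 1 of the 4 above the median row. Insulin and IGF signaling genes are expressed by neurons, glia and vessels alike, and how much of the reads on the 9 genes came from each of these cells or regions was not tested.

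**Figure D3:**
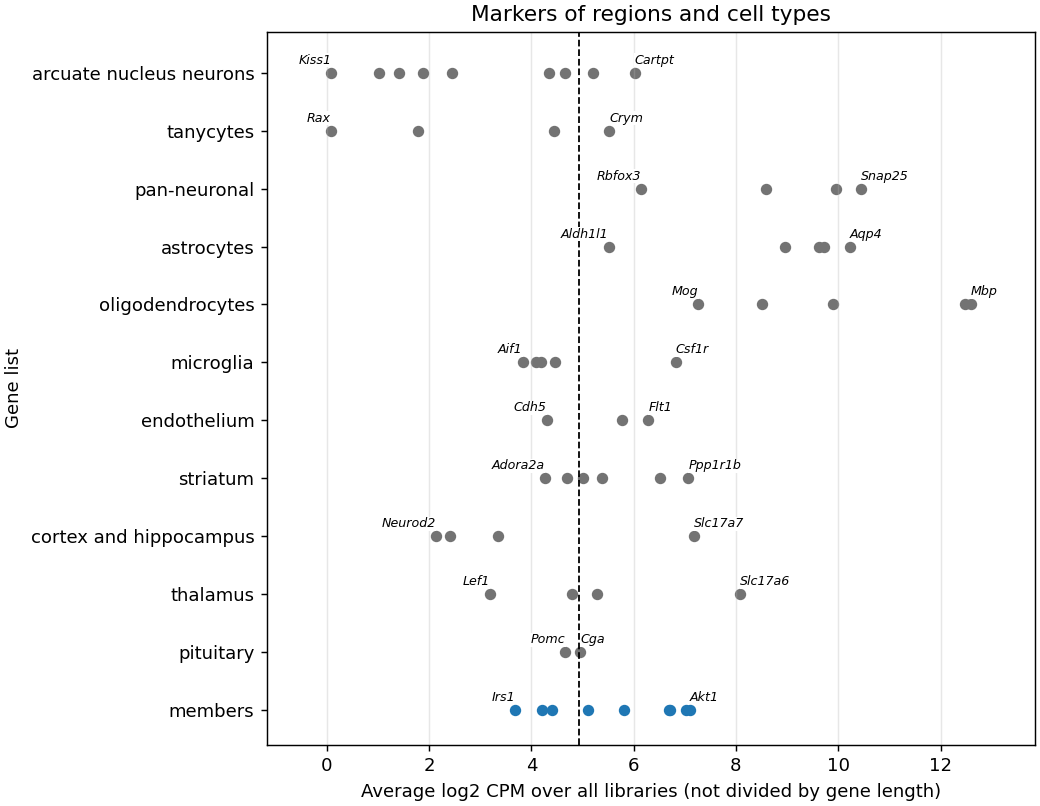
Average log2 CPM over all libraries (horizontal axis, not divided by gene length) of marker genes by region or cell type (grey points) and of the 9 core genes, labelled members (blue points), with the median row of 4.94 as a dashed line. The highest and lowest gene of each list are named. Oligodendrocyte markers reach 12.59, whereas the genes listed for ARC neurons run from 0.08 to 6.02.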

How the data were processed

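Poly-A RNA of the ARC of 10 dams (5 per diet, labelled as separate samples) was sequenced. Per the labels and the methods of the study, the authors used Trim Galore 0.5.0, STAR 2.6.0c (Rnor_6.0, Ensembl genes) and HTSeq 0.6.1p2, and removed genes with few reads. The deposited table gives each gene's average on a log2 scale (log2 CPM). For their comparison of the diets the authors name DESeq2 1.26.0s, whose usual output has neither an average log2 CPM nor an F, and which tool made these columns is not given in the sources used here. Raised from log2, the averages sum to 1002150 CPM.

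The 10 columns of values per library match no sample label and were used in no step. A further 4 columns hold the authors' own comparison of the diets (log2 fold change, F, p-value and FDR) and were not used. The intended limma test between diets was therefore not run.

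CPM (2 to the power of the average), percentiles among all rows, differences and sums were computed with Python 3.11.15, numpy 2.4.6 and pandas 2.3.3, in functions tested on simulated data. Gene coordinates are those of the table. RefSeq start windows (GRCr8, 300 bases) were matched by symbols that occur once. The genes named are the members and the highest and lowest gene of each list. Their relatives, *Igf1*, *Igf2*, *Grb10*, *Ptpn1*, *Neurod6*, *Tbr1* and the ARC peptides were added after their values were seen. Some listed genes are not reported here. The members and lists were chosen with earlier results of these data known. As alternatives, percentiles were taken among protein-coding rows and above an average of 1 (log2 CPM).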

Additional observations from a re-analysis of the deposited data

How the results depend on the processing

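The percentile of each of the 9 genes was taken again among the 12383 protein-coding rows and among the 12462 rows whose log2 CPM averaged 1 or more. All 9 moved down under both. The changes ran from -1.83 to -0.29 points among protein-coding rows and from -2.19 to -0.35 points above the minimum. Their median percentile of 67.9 became 67.1 and 67.0. All 9 average above 1 (the lowest, *Irs1*, at 3.68), so leaving out the rows below 1 could only lower their percentiles. Both sets keep most of the 12828 rows, so neither could move a percentile far. A division by length was not run, since the lengths at hand are those of whole genes with their introns. The title of the table names FPKM, a unit that is divided by length, but its columns of values per library match no sample label and were used in no step. The order of the genes in reads may differ from their order in transcripts. Other settings of the test between diets (pseudocount, filter, centring, leaving out a dam) were not run, because the test was not. No paired analysis was possible because the columns of values per library carry neither diet nor replicate number. Since these columns were not used, no spread between libraries is given, and the averages stand without an error.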
